A study of Mus musculus with 38 samples.

Results

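The genes followed here carry out or control the breakdown of the branched-chain amino acids leucine, isoleucine and valine. They were chosen by name as Bcat2, Bckdha, Bckdhb, Dbt, Bckdk, Ppm1k, Mccc1, Hibadh and Acadsb. For each, every promoter cluster was taken whose highest position was at most 500 bp away, on the same strand, from a 5′ end annotated for the gene. All 9 genes had a cluster, and each had exactly 1, so 9 of the 10819 clusters were followed. No cluster had the 5′ end of another gene in its window.

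Branched-chain amino acids are unusual in that muscle, and not mainly the liver, starts their breakdown. In mitochondria a transaminase, BCAT2, moves the amino group to another keto acid, and the branched-chain ketoacid dehydrogenase complex then makes the irreversible step to an acyl-CoA. A kinase, BCKDK, switches the complex off by phosphorylation and a phosphatase, PPM1K, switches it on again. Each carbon chain then has its own enzymes on the way to the citric acid cycle or to ketone bodies.

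Promoter activity was measured in the soleus, a postural muscle rich in slow fibers, of wild type C57BL/6J mice by nAnT-iCAGE, which sequences the capped 5′ ends of RNA without PCR. Experiment #1 held 28 libraries, with 4 Pre (fed freely, day 1), 8 Mid (food withdrawn, fasting-induced torpor, day 2), 4 Post (food returned, day 3), 4 HiT (food withdrawn but kept warm throughout, so that torpor was prevented, day 2), 4 Dep (food withdrawn but torpor disturbed by touching, day 2) and 4 Fed (food kept, day 2). Oxygen use varied widely among the Mid mice, and the paper takes them to have been torpid or between bouts of torpor when sampled. Experiment #2 held 10 libraries of another batch of mice, with 2 Pre, 5 Mid and 3 Post. The study's methods describe the HiT mice as fasted and the Fed mice as eating, while the deposited labels give starvation for Fed and the design text gives food for HiT, and the groups are used here as the methods describe them. Each library came from 1 mouse, all mice were male, and no group carried an allele or a drug.

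Tags in clusters numbered 18257657 to 39176649 per library in experiment #1 and 9359994 to 20914855 in experiment #2. Levels are given as CPM, tags per 1000000 of the library after TMM scaling. Scaling was done separately in each experiment, so a level is compared only within an experiment. A CAGE tag marks a 5′ end whatever the length of the RNA, so the levels need no correction for length. How evenly tags of different genes were captured and mapped was not tested. The 10 clusters with most tags took 15.1% to 40.3% of a library in experiment #1, with the highest share in HiT 4, and 6 of them had no annotated 5′ end within 500 bp. The markers of slow fibers (7 of 7 with a cluster) summed to 10027 to 16436 CPM in experiment #1, and those of fast fibers (9 of 9) to 17793 to 26819. The whole soleus was sampled, so fewer cells of a type and less RNA per cell cannot be told apart in any of the levels.

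The clusters were 174 to 372 bp wide in mm10. Bcat2 started at chr7:45570347 on the plus strand, 3 bp from the annotated 5′ end, Bckdk at chr7:127904091 on the plus strand, Acadsb at chr7:131410709 on the plus strand and Bckdha at chr7:25658744 on the minus strand. Dbt started at chr3:116513110 on the plus strand, Mccc1 at chr3:36000581 on the minus strand, Hibadh at chr6:52640278 and Ppm1k at chr6:57535507, both on the minus strand, and Bckdhb at chr9:83925157 on the plus strand. The Bckdha position lay 237 bp inside the 5′ end annotated by GENCODE M21, and the other 8 positions lay within 39 bp of one. Measured from the RefSeq starts used below, Bckdha lay 17 bp inside, Bcat2 194 bp, Acadsb 108 bp and Mccc1 97 bp. Bckdhb, Bckdk, Ppm1k and Hibadh lay within 22 bp of their RefSeq starts.

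RefSeq start windows of build GRCm38.p6, from 250 bases before to 50 after the start, were matched for 8 of the 9 genes, all but Dbt. The stretches below run up to the start of the kinase and of the phosphatase, the opposed switches of the complex, and in front of Hibadh, and hold no annotated exon. Capitals mark the letters of a searched motif on either strand.
Bckdk (chr7:127903893-127904072, plus strand): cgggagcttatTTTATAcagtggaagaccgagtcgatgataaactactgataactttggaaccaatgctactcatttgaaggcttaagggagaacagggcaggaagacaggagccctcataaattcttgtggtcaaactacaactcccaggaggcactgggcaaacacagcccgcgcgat
Ppm1k (chr6:57535508-57535687, minus strand): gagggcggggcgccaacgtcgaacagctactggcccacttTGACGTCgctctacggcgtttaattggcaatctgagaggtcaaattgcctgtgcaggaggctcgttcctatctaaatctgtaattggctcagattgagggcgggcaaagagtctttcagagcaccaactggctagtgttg
Hibadh (chr6:52640390-52640550, minus strand): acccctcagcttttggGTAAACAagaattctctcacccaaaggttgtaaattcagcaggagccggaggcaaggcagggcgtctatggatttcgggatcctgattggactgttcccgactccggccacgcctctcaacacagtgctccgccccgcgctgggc

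Bckdk carried the letters TATAAA, the core of a TATA box, on its other strand, 187 bases before its highest position. Ppm1k carried TGACGTC, the core of a cAMP response element, 140 bases before its own, and Hibadh carried TGTTTAC, a FOXO motif, on its other strand at 256 bases before. Of the 32817 RefSeq windows, 13.6% held TATAAA, 3.21% held TGACGTC and 3.65% held TGTTTAC, each counted on both strands. CCACCC, a KLF motif, was in the windows of Bcat2, Bckdhb and Mccc1, 3 of 8, against 31.5% of all windows. AAGGTCA, the motif of the ERR receptors, was in 0 of 8 (4.72% of all), and CACGTG, the E-box, was also in 0 of 8 (7.15% of all). None of the 6 motifs overlaps another, and a match of letters is not a binding site.

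The levels of the 9 promoters spanned a wide range in experiment #1. Hibadh, the dehydrogenase of the valine branch, was highest, with a mean of 152 CPM over the 28 libraries and rank 814 of the clusters. Acadsb, the short branched-chain acyl-CoA dehydrogenase of isoleucine, followed with 89.4, and then Bckdha with 57.8, Bckdhb with 55.2 and Bckdk with 51.8, whose ranges overlapped. Mccc1, the biotin-bearing subunit of the leucine branch carboxylase, stood at 37.5 and Dbt at 14.1. Bcat2 with 6.30 and Ppm1k with 5.73 were lowest, and their ranges overlapped too. The fewest tags behind a value were 91 in experiment #1 and 84 in experiment #2, both for Ppm1k.

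**Figure D1:**
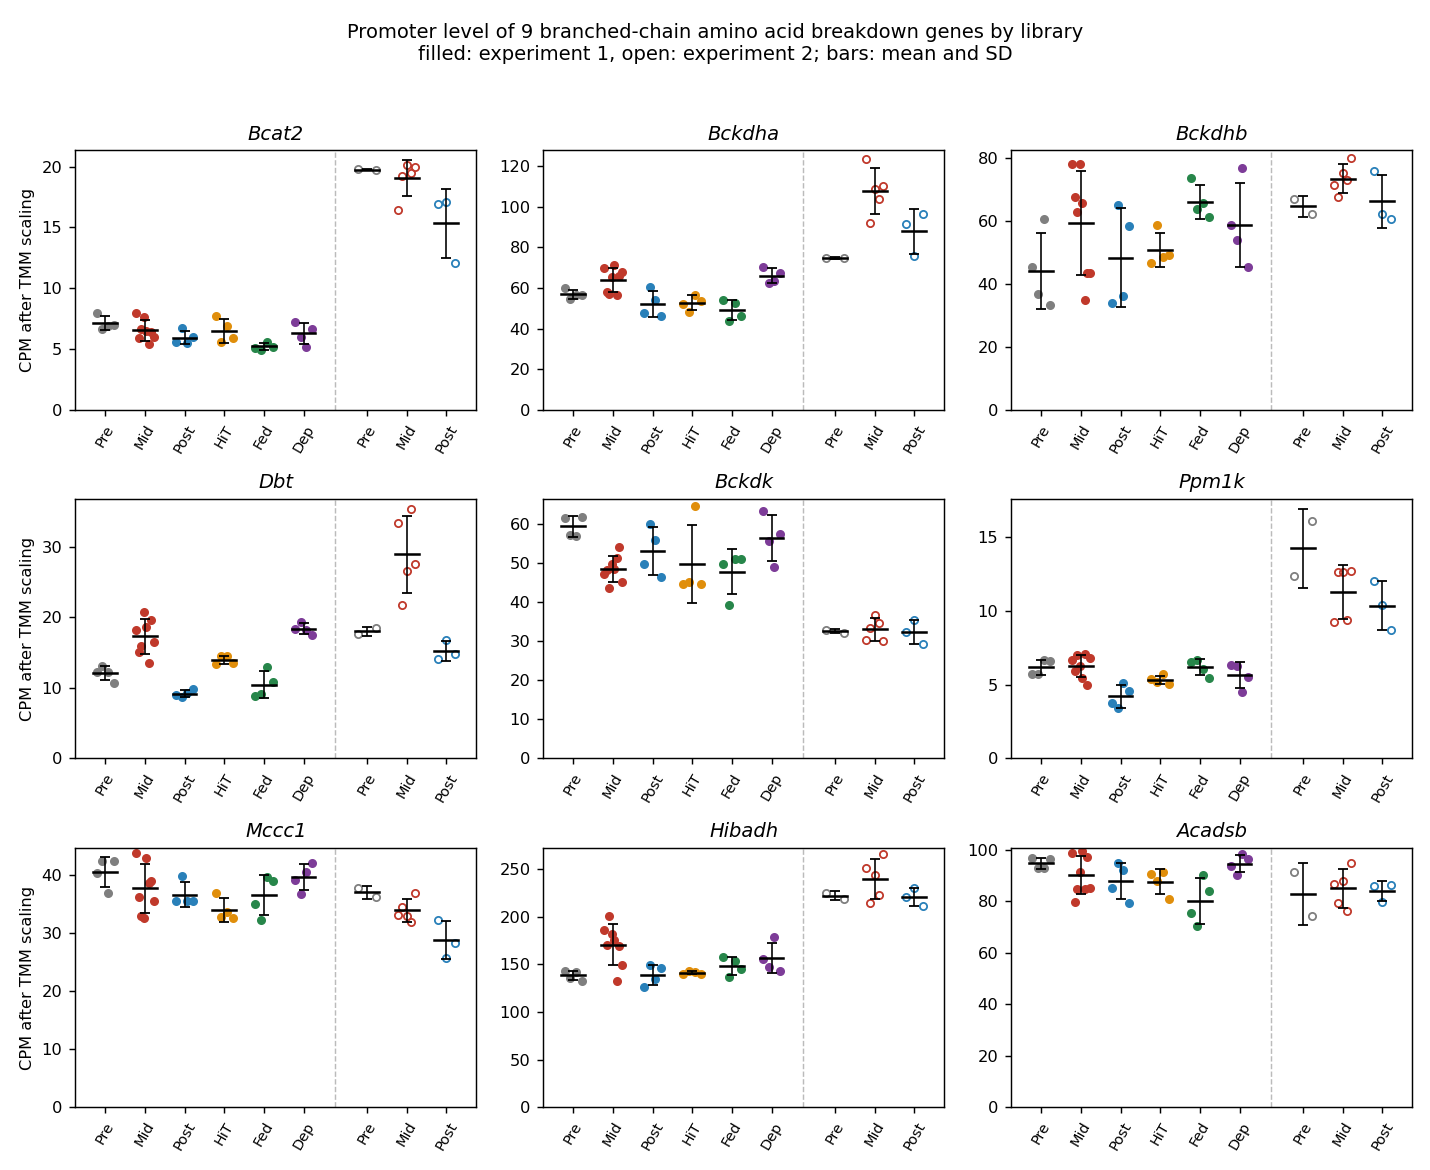
Level of each promoter in CPM after TMM scaling (y axis) in every library of the 6 groups of experiment #1 (filled points) and the 3 groups of experiment #2 (open points); bars are the mean and SD. Dbt sat between 13.5 and 20.8 in the Mid group and between 8.78 and 9.83 in the Post group of experiment #1, without overlap. Between these groups 17.02% of all clusters were without overlap.

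Dbt encodes the E2 subunit, which forms the core of the dehydrogenase complex and carries the acyl group. In experiment #1 its promoter was at 12.3, 13.1, 12.3 and 10.7 CPM in the Pre libraries, at 13.5 to 20.8 (median 17.4) in the 8 Mid libraries and at 8.95, 8.78, 9.25 and 9.83 in the Post libraries. Every Mid library was above every Pre and every Post library (14.8% and 17.02% of all clusters were without overlap in these comparisons). The level rose from the Pre to Mid by 0.52 on the log2 scale (SE 0.10, adjusted p = 0.00045, edgeR quasi-likelihood test) and fell by 0.91 from the Mid to Post (SE 0.11, adjusted p = 3.7e-07).

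Among the day 2 controls of experiment #1, Dbt was highest in Dep and lowest in Fed. It was at 13.5, 14.5, 14.5 and 13.5 CPM in HiT, at 8.79, 9.15, 13.03 and 10.8 in Fed and at 18.4, 19.4, 18.2 and 17.5 in Dep. By group mean the order was Dep 18.4, Mid 17.3, HiT 14.01, Pre 12.1, Fed 10.5 and Post 9.20. The Dep and Mid libraries overlapped and did not differ by the test (log2 difference 0.09, 95% interval -0.12 to 0.29, adjusted p = 0.67). Mid exceeded HiT by 0.30 (SE 0.10, adjusted p = 0.019) and Fed by 0.72 (SE 0.10, adjusted p = 8.8e-06). HiT exceeded Fed by 0.42 (adjusted p = 0.0060), Dep exceeded Fed by 0.81 (adjusted p = 1.1e-05) and Dep exceeded HiT by 0.39 (adjusted p = 0.014). Each of the last 3 pairs of groups was without overlap, as were 36.6%, 33.51% and 26.03% of all clusters in the same order. Neighbours in the order that were not compared by a test are HiT with Pre, and Fed with Post.

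In experiment #2 Dbt was at 17.6 and 18.4 CPM in the Pre, at 33.3, 21.8, 26.6, 35.4 and 27.5 in the Mid and at 14.1, 16.8 and 14.9 in the Post libraries. All 5 Mid libraries were again above all others. Of all clusters in experiment #2, 31.25% were without overlap between Pre and Mid and 23.3% between Mid and Post. The rise from the Pre to Mid was 0.68 (SE 0.18, adjusted p = 0.037) and the fall from the Mid to Post was 0.92 (SE 0.15), written as a log2 change of -0.92 (adjusted p = 0.0024). The 2 experiments did not differ in either step by the test of the difference (0.16, 95% interval -0.23 to 0.55, adjusted p = 1.00 for the first step, and -0.01, interval -0.37 to 0.35, adjusted p = 1.00 for the second). Lane and group overlapped in experiment #2, with Pre and 4 Mid libraries on lane 3 and 1 Mid library and the Post on lane 4. On lane 3 Dbt was at 17.6 to 18.4 in the Pre and at 21.8 to 35.4 in the Mid, and on lane 4 it was at 27.5 in the Mid and at 14.1 to 16.8 in the Post, so the order held within each lane. With the lane as a term the changes were 0.69 (adjusted p = 0.059) and -0.86 (adjusted p = 0.070). The first step of experiment #2 also missed the threshold without Mid 9 (0.62, adjusted p = 0.065), Mid 12 (0.60, 0.061), Mid 13 (0.69, 0.059), Pre 5 (0.64, 0.21) or Pre 6 (0.72, 0.17), and with only the compared groups in the fit (0.69, 0.060).

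Bckdha encodes the alpha chain of the E1 subunit, the decarboxylase whose phosphorylation switches the complex off. It was at 60.02, 54.6, 56.6 and 56.6 CPM in Pre, at 56.5 to 71.1 (median 65.5) in Mid and at 47.4, 60.3, 53.9 and 46.3 in Post of experiment #1. In HiT it was at 52.3, 48.1, 56.8 and 53.7, in Fed at 53.9, 43.9, 52.8 and 46.0 and in Dep at 70.4, 62.7, 63.3 and 67.4. The Mid and Dep libraries were all above the Fed libraries (13.6% and 33.51% of all clusters were without overlap in these comparisons). The Dep libraries were all above the HiT libraries (26.03% of all clusters were without overlap between these groups). The Pre libraries were also all above the Fed libraries, a pair of groups without overlap in 17.8% of all clusters. By the quasi-likelihood test this log2 difference from Pre to Fed missed the threshold (-0.21, 95% interval -0.40 to -0.03, adjusted p = 0.12).

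Between Mid and Fed the difference in Bckdha was 0.38 (SE 0.08, adjusted p = 0.00052), and between Mid and HiT it was 0.28 (SE 0.08, adjusted p = 0.0058). Dep exceeded Fed by 0.43 (adjusted p = 0.00064) and HiT by 0.32 (adjusted p = 0.0084), and Mid and Dep did not differ by the test (0.04, 95% interval -0.12 to 0.20, adjusted p = 0.79). From the Mid to Post it fell by 0.30 (SE 0.08, adjusted p = 0.0042), while the step from the Pre to Mid missed the threshold in experiment #1 (0.17, interval 0.01 to 0.33, adjusted p = 0.11). In experiment #2 Bckdha was at 75.0 and 74.6 in the Pre, at 123.7, 91.9, 108.8, 104.0 and 110.2 in the Mid and at 91.7, 75.5 and 96.6 in the Post. There the rise from the Pre to Mid was 0.53 (SE 0.13, adjusted p = 0.028), and the step from the Mid to Post was -0.29 (adjusted p = 0.099), or -0.34 without Mid 10 (adjusted p = 0.046). With the lane as a term the rise was 0.52 (adjusted p = 0.053). It also missed the threshold without Mid 12 (0.54, adjusted p = 0.051), Mid 13 (0.52, 0.053), Pre 5 (0.53, 0.16) or Pre 6 (0.53, 0.16). The difference of the rise between the experiments was 0.36, with an interval of 0.07 to 0.65 that lay above 0. The quasi-likelihood test did not call it (adjusted p = 0.94).

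Bckdhb encodes the beta chain of E1, the partner of the alpha chain in a fixed assembly. Its promoter was the most variable of the 9 within groups of experiment #1, with a standard deviation of 0.35 on the log2 scale, larger than that of 92.4% of the 7697 clusters with a mean of at least 10 CPM. In the Mid group 5 libraries stood at 62.8 to 78.1 CPM and the other 3 at 34.9, 43.5 and 43.5. In Pre it was at 45.2, 36.9, 60.5 and 33.3, in Post at 34.0, 64.9, 36.0 and 58.3, in HiT at 46.5, 58.8, 48.4 and 49.2, in Fed at 73.7, 63.6, 65.7 and 61.3 and in Dep at 58.5, 54.0, 76.8 and 45.2. Of the 10 pairs of groups compared in experiment #1, only Pre with Fed (log2 difference 0.59, interval 0.10 to 1.08, adjusted p = 0.11) and Fed with HiT (-0.38, interval -0.87 to 0.11, adjusted p = 0.20) were without overlap. Of all clusters, 17.8% were without overlap between Pre and Fed and 36.6% between Fed and HiT. With only the compared groups in the fit, the Bckdhb difference of Fed and HiT was called (-0.39, adjusted p = 0.013). The edgeR quasi-likelihood test over all groups called Bckdhb in none of the comparisons of either experiment, and its difference from the Pre to Mid (0.43, interval 0.00 to 0.86, adjusted p = 0.12) passed without Mid 6 (0.53, adjusted p = 0.039) or Pre 3 (0.62, adjusted p = 0.046).

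The ratio of promoter tags of the E1 chains varied between libraries. On the log2 scale, Bckdhb to Bckdha ran from -0.70 to 0.26 in Mid, from -0.77 to 0.09 in Pre and from -0.58 to 0.33 in Post. In Fed it ran from 0.31 to 0.54, and the Fed group was the only one in which Bckdhb was above Bckdha in all of its libraries. The ratio of Dbt to Bckdha was between -2.07 and -1.65 in Mid, between -1.94 and -1.69 in Dep and between -1.99 and -1.73 in HiT. It was between -2.40 and -2.06 in Pre, between -2.62 and -2.02 in Fed and between -2.78 and -2.24 in Post. These ratios were described and not tested.

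**Figure D2:**
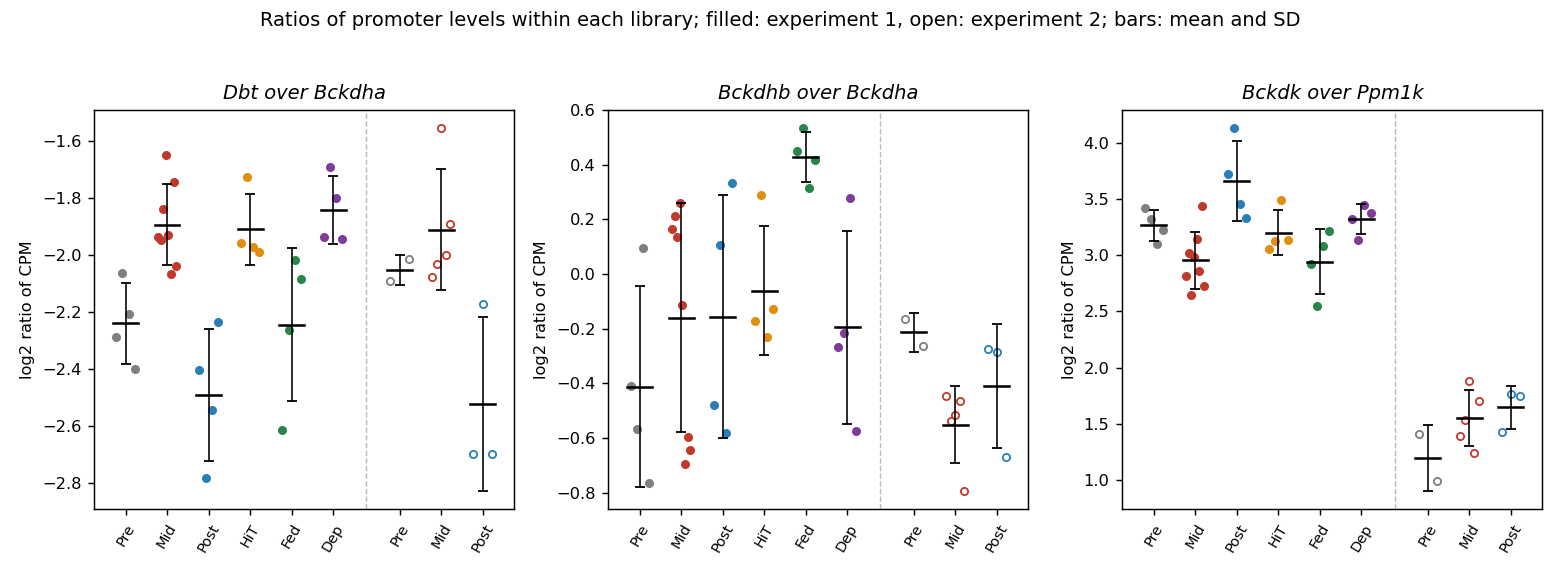
Log2 ratio of CPM (y axis) of Dbt to Bckdha, Bckdhb to Bckdha and Bckdk to Ppm1k in each library; filled points are experiment #1, open points experiment #2, bars the mean and SD. The ratio of Bckdk to Ppm1k lay between 2.55 and 4.13 in experiment #1 and between 0.99 and 1.88 in experiment #2.

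Bckdk, the kinase that inactivates the complex, was at 61.4, 57.2, 56.9 and 61.7 CPM in Pre and at 43.6 to 53.9 (median 48.3) in Mid of experiment #1. All Mid libraries were below all Pre libraries (14.8% of all clusters were without overlap between these groups), and the level fell by 0.29 (SE 0.09, adjusted p = 0.020). This call was lost without Pre 1 (-0.28, adjusted p = 0.058) and without Pre 4 (-0.27, adjusted p = 0.057). In Post it was at 49.6, 59.8, 55.9 and 46.3, in HiT at 44.5, 45.1, 64.5 and 44.6, in Fed at 49.6, 39.3, 51.0 and 51.0 and in Dep at 63.2, 55.4, 48.9 and 57.3. In none of the other comparisons of 2 groups did the same test call it, while DESeq2 called it from Pre to Fed (-0.32, adjusted p = 0.041). Single libraries kept it from 3 calls, from Pre to Fed without Fed 3 (-0.35, adjusted p = 0.046), from Fed to Dep without Dep 3 (0.30, 0.045) and from HiT to Dep without HiT 3 (0.36, 0.0088). In experiment #2 the Pre libraries, at 32.8 and 32.1, lay among the Mid libraries, at 30.2, 33.2, 36.7, 34.5 and 30.004 (log2 difference 0.02, interval -0.21 to 0.26, adjusted p = 0.93). The 2 experiments did not differ in this step by the test (0.32, interval -0.01 to 0.64, adjusted p = 0.99).

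Ppm1k, the mitochondrial phosphatase that reactivates the complex, was at 5.75, 5.73, 6.65 and 6.59 CPM in Pre and at 4.98 to 7.05 (median 6.48) in Mid, which overlapped. In Post it was at 3.75, 3.41, 5.11 and 4.59, below all Pre libraries (11.5% of all clusters were without overlap between Pre and Post). It fell by 0.57 from the Mid to Post (SE 0.12, adjusted p = 0.00071), and the Post level was below the Pre level by a log2 change of -0.55 (SE 0.14, adjusted p = 0.035). The second of these calls was lost when any of the Pre libraries, Post 1, Post 2 or Post 4 was left out (adjusted p = 0.062, 0.059, 0.11 and 0.11 without Pre 1, 2, 3 and 4, and 0.16, 0.14 and 0.051 without Post 1, 2 and 4), and without HiT 4 (-0.53, adjusted p = 0.051) or with only the compared groups in the fit (-0.53, 0.11). HiT was at 5.36, 5.17, 5.72 and 5.08, Fed at 6.55, 6.71, 6.04 and 5.48 and Dep at 6.34, 6.29, 4.49 and 5.51, and no comparison of these was called. In experiment #2 it was at 12.4 and 16.1 in Pre, at 9.24, 12.6, 12.6, 9.36 and 12.7 in Mid and at 12.01, 10.4 and 8.69 in Post, and neither step was called (-0.32, adjusted p = 0.31, and -0.13, adjusted p = 0.65).

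The log2 ratio of kinase to phosphatase had a median of 3.27 in Pre, 2.92 in Mid and 3.59 in Post of experiment #1, with ranges of 3.10 to 3.42, 2.64 to 3.44 and 3.33 to 4.13. The Mid range covered that of Pre, and 1 Mid library lay inside that of Post. HiT was at 3.05 to 3.49, Fed at 2.55 to 3.22 and Dep at 3.14 to 3.45. In experiment #2 the ranges were 0.99 to 1.41, 1.24 to 1.88 and 1.43 to 1.76 in the same order of groups. The ratio is of promoter tags, and not of protein or activity.

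Bcat2, the mitochondrial transaminase that opens the pathway, was at 8.003, 6.63, 6.90 and 6.98 CPM in Pre, at 5.39 to 7.93 (median 6.41) in Mid and at 5.57, 6.71, 5.51 and 5.97 in Post. These overlapped, and neither step was called. Fed was lowest, at 5.11, 4.95, 5.58 and 5.19, below every Pre library (log2 difference -0.45, SE 0.13, adjusted p = 0.029). Between Pre and Fed 17.8% of all clusters were without overlap. Mid exceeded Fed by 0.33 (SE 0.11, adjusted p = 0.027), and HiT, at 7.68, 5.55, 6.86 and 5.89, exceeded Fed by 0.32 (SE 0.13, adjusted p = 0.048). Each of these 3 calls was lost without single libraries. The first was lost without Fed 1, Fed 2, Pre 1 or Pre 3 (adjusted p = 0.083, 0.095, 0.097 and 0.052), the second without Fed 1, Fed 2, Fed 4, Mid 1 or Mid 4 (0.062, 0.080, 0.058, 0.052 and 0.050) and the third without Fed 1, Fed 2, Fed 4, HiT 1 or HiT 3 (0.088, 0.10, 0.082, 0.21 and 0.096). With only the compared groups in the fit all 3 were lost (adjusted p = 0.059, 0.097 and 0.14). The second also missed the threshold with upper-quartile scaling (0.050), and the third with upper-quartile scaling (0.089), RLE size factors (0.053) and the likelihood ratio test (0.057). From Fed to Dep it passed without Dep 3 (0.35, adjusted p = 0.043).

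In the valine branch Hibadh, which oxidizes 3-hydroxyisobutyrate, was at 142.8, 135.3, 142.2 and 132.7 CPM in Pre and at 132.2 to 200.6 (median 173.2) in Mid. It rose by 0.30 (SE 0.08, adjusted p = 0.0060), fell by 0.30 from the Mid to Post (SE 0.08, adjusted p = 0.0062), where it was at 126.3 to 149.4, and was above HiT, at 139.8 to 143.3, by 0.27 (adjusted p = 0.0090). Mid 6 was the lowest Mid library, and Mid 6 and Mid 8 lay inside the range of Post. With only the compared groups in the fit the rise was 0.28 (adjusted p = 0.053). The difference from Fed, at 136.5 to 157.6, missed the threshold (0.21, interval 0.04 to 0.37, adjusted p = 0.051), and passed it without Mid 2 (0.24, adjusted p = 0.030), Mid 6 (0.28, 0.0024), Mid 8 (0.26, 0.015) or HiT 4 (0.23, 0.028), and by DESeq2 (0.22, 0.027) and with RLE size factors (0.22, 0.039). In experiment #2 neither step of Hibadh was called (0.11, adjusted p = 0.56, and -0.12, adjusted p = 0.42), and the experiments did not differ by the test (adjusted p = 1.00 and 0.79).

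In the isoleucine branch Acadsb varied least of the 9 within groups of experiment #1, with a standard deviation of 0.10 on the log2 scale. It was at 92.9 to 96.7 CPM in Pre, at 79.8 to 99.4 in Mid, at 79.4 to 94.8 in Post, at 80.9 to 91.5 in HiT, at 70.6 to 90.4 in Fed and at 90.3 to 98.3 in Dep. The 2 calls were both against Fed, which was below Pre (-0.24, SE 0.08, adjusted p = 0.045) and below Dep (0.24, SE 0.08, adjusted p = 0.017). The first was lost without any of Pre 1 to 4 (adjusted p = 0.11, 0.076, 0.077 and 0.084), Fed 1 or Fed 2 (0.16 and 0.19), and the second without Fed 1 or Fed 2 (0.057 and 0.082). With only the compared groups in the fit both were lost (0.11 and 0.070), and the first was also lost with the likelihood ratio test (0.055). From Fed to Mid the difference was 0.17 (adjusted p = 0.052) and passed without Fed 3 (0.23, 0.013), Mid 2 (0.23, 0.013), Mid 3 (0.18, 0.040), Mid 6 (0.21, 0.024), Mid 8 (0.21, 0.029) or HiT 4 (0.20, 0.031), and by DESeq2 (0.18, 0.029) and with RLE size factors (0.18, 0.041). Fed 2 held the lowest Acadsb level of experiment #1, and also that of Bcat2, Bckdha, Bckdk and Mccc1.

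In the leucine branch Mccc1 was called by edgeR's quasi-likelihood test in none of the comparisons. It was at 36.8 to 42.4 CPM in Pre, at 32.6 to 43.8 in Mid, at 35.5 to 39.8 in Post, at 32.5 to 36.9 in HiT, at 32.3 to 39.7 in Fed and at 36.7 to 42.0 in Dep. From the Pre to Mid the log2 difference was -0.10 with an interval of -0.26 to 0.05. The closest to the threshold was the difference of HiT and Dep (0.22, interval 0.04 to 0.40, adjusted p = 0.062), which passed without HiT 1 (0.30, adjusted p = 0.031) or Dep 2 (0.26, 0.050). It was also called by DESeq2 (0.24, adjusted p = 0.038), with RLE size factors (0.24, 0.046) and with only the compared groups in the fit (0.24, 0.047). From HiT to Mid it was 0.15 (adjusted p = 0.12), or 0.22 without HiT 1 (0.049), and from the Mid to Post of experiment #2 it was -0.23 (0.096), or -0.32 without Post 5 (0.050).

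From the Pre to Mid of experiment #1, 2 of the 9 promoters rose (Dbt and Hibadh) and 1 fell (Bckdk), and 30.2% of all 10776 tested clusters were called. From the Mid to Post 4 fell (Bckdha, Dbt, Ppm1k and Hibadh), where 35.0% of all were called. Dbt and Hibadh were thus called in both steps, in opposite directions, and these steps share the Mid libraries. From HiT to Mid 3 rose (Bckdha, Dbt and Hibadh) with 41.0% of all called, and from Fed to Mid 3 rose (Bcat2, Bckdha and Dbt) with 35.2%. Between Mid and Dep 0 of 9 were called, where 2.03% of all were, and 1 of the 9, Bckdk, had an unadjusted p under 0.05. DESeq2 and the likelihood ratio test also called 0. The shares of the 9 were near those of all clusters.

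In the other comparisons of experiment #1, 1 of the 9 was lower in Post than in Pre (Ppm1k, 1.85% of all clusters called) and 2 were lower in Fed than in Pre (Bcat2 and Acadsb, 11.2% called). Against Fed, 2 were higher in HiT (Bcat2 and Dbt, 43.2% called) and 3 in Dep (Bckdha, Dbt and Acadsb, 38.6% called), and 2 were higher in Dep than in HiT (Bckdha and Dbt, 26.5% called). In experiment #2, 2 rose from the Pre to Mid (Bckdha and Dbt, 9.74% called) and 1 fell from the Mid to Post (Dbt, 16.4% called). Over the 6 groups of experiment #1 at once, 5 of 9 differed (Bckdha, Dbt, Bckdk, Ppm1k and Hibadh), against 70.6% of all clusters. Bcat2, Bckdhb, Acadsb and Mccc1 did not pass that test.

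**Figure D3:**
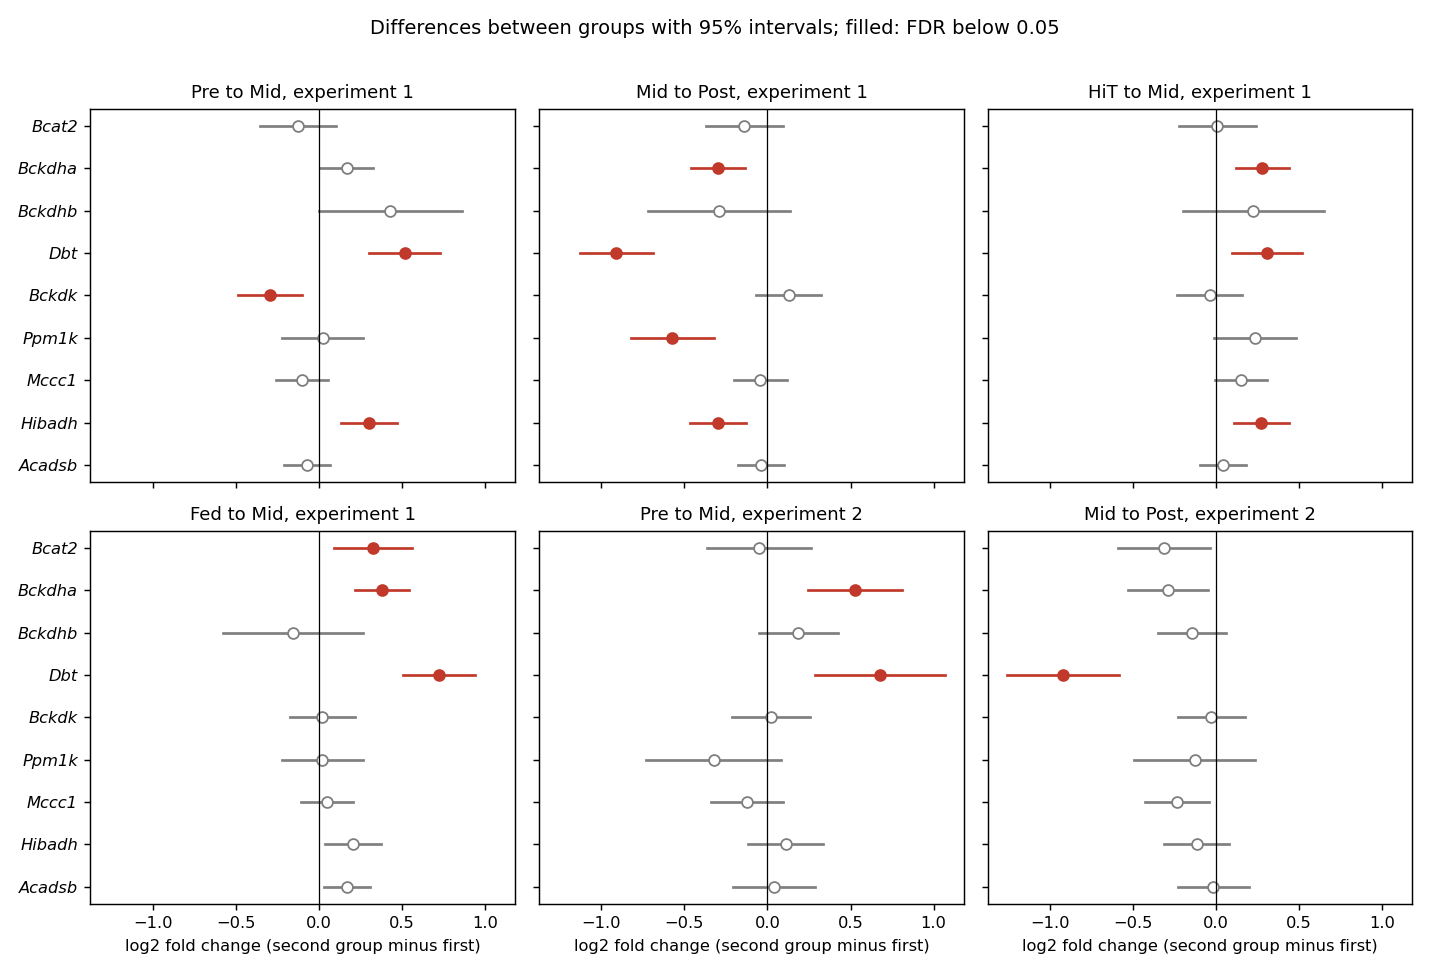
Log2 fold change (x axis, second group minus first) of the 9 promoters in 4 comparisons of experiment #1 and 2 of experiment #2, with 95% intervals; filled red points passed an adjusted p of 0.05. Dbt was called in all 6, at 0.52, -0.91, 0.30, 0.72, 0.68 and -0.92.

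Without the TMM scaling the calls of the 9 dropped to 0 from the Pre to Mid, 2 from the Mid to Post (Dbt and Ppm1k), 0 from HiT to Mid and 1 from Fed to Mid (Dbt) in experiment #1. The Dbt change from the Pre to Mid was then 0.45 (adjusted p = 0.11) and that from HiT to Mid was 0.42 (adjusted p = 0.11). The cluster with most tags, at chr17:39842992-39848067 with no annotated 5′ end within 500 bp, took 4.76% to 18.04% of the tags of a library, highest in HiT 4, and its part in these losses was not tested.

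Over the 28 libraries of experiment #1, Pearson's r of log2 levels was above 0.3 in 17 of the 36 pairs of the 9 promoters and below 0 in 8, with a median of 0.24. It was highest for Bckdha and Dbt (0.75), then for Bckdhb and Hibadh (0.71) and for Acadsb and Mccc1 (0.68). It was lowest for Bckdhb and Bckdk (-0.33) and was 0.15 for the E1 chains Bckdha and Bckdhb and -0.10 for the kinase and the phosphatase. The libraries share their groups and their scaling, so these values are descriptions.

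Among the clusters of other genes with a mean of at least 10 CPM, the patterns most like that of Dbt over these libraries were Bclaf1 (r = 0.94), Gabarapl1 (0.94), an autophagy gene, and Plin5 (0.93), a lipid droplet coat gene. Those most like Bckdha were Ube2b (0.87), Acadl (0.86), the long-chain acyl-CoA dehydrogenase, and Ube2g2 (0.86). Bckdk was most like Ndufb4c (0.87), Ndufb4 (0.86) and Ube2d-ps (0.85), and near-identical copies among these could share tags. Hibadh was most like Rnf115 (0.88), Fam76a (0.87) and Lrrc58 (0.87), and Bckdhb was most like Sympk (0.91), Dctn1 (0.88) and Dnajb11 (0.87). Acadsb was most like Gm9803 (0.82), Aifm1 (0.81) and Ivd (0.80), the isovaleryl-CoA dehydrogenase of the leucine branch. For Mccc1 they were Msra (0.77), Grhpr (0.73) and Brcc3 (0.73). For Bcat2 they were Oat (0.65), the ornithine aminotransferase, Cnbp (0.63) and Selenbp1 (0.63), and for Ppm1k they were Cd2ap (0.60), Lgr4 (0.60) and Dgcr2 (0.59).

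Of the 18 other genes of the pathway 17 had a cluster, all but Bcat1, the cytosolic transaminase. In experiment #1, 1 rose from the Pre to Mid and 0 fell, with a median log2 change of 0.06 beside 0.01 for all clusters. The riser was Auh, a hydratase of the leucine branch (0.38, SE 0.06, adjusted p = 6.2e-05), which also fell from the Mid to Post (-0.41, adjusted p = 1.9e-05). Both calls of Auh were lost without the TMM scaling (0.31, adjusted p = 0.15, and -0.39, adjusted p = 0.063). From the Mid to Post 4 of 17 fell and 0 rose (median -0.07, all clusters -0.01). Mid exceeded HiT in 8 of 17 (median 0.15) and Fed in 10 of 17 (median 0.28), with 0 lower in both. For all clusters the medians were 0.02 and 0.00, and 41.0% and 35.2% were called. Fed was itself below Pre in 6 of 17 and above it in 0 (median -0.20, all clusters 0.02), with 11.2% of all clusters called. Between Mid and Dep edgeR's quasi-likelihood test called 0 of 17 (2 at an unadjusted p under 0.05, 0 by DESeq2). In experiment #2 it called 0 of 17 from the Pre to Mid (3 at an unadjusted p under 0.05, 1 by DESeq2), and 1 fell from the Mid to Post, Acaa2. Of all clusters 2.03% were called between Mid and Dep, and 9.74% and 16.4% in the steps of experiment #2.

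Of the 5 regulators of muscle oxidation followed here, 4 rose from the Pre to Mid of experiment #1, where 30.2% of all clusters were called. Klf15, which drives amino acid breakdown in fasted muscle, rose from the Pre to Mid by 1.57 on the log2 scale (adjusted p = 2.2e-05), from 25.3 to 27.9 up to 41.1 to 127.0 CPM. Ppara rose by 1.36 (adjusted p = 6.0e-08), Ppargc1a by 4.78 (adjusted p = 7.1e-06) and Mlxip by 0.52 (adjusted p = 0.00025), while Esrra was not called (0.29, adjusted p = 0.14). All 5 fell from the Mid to Post (35.0% of all clusters called), with log2 changes of -2.05 for Klf15, -1.66 for Ppara, -5.97 for Ppargc1a, -0.44 for Mlxip and -0.61 for Esrra. In experiment #2, 4 of 5 rose and 4 of 5 fell, where 9.74% and 16.4% of all clusters were called. Esrra was called there in neither step by the same test (-0.14, adjusted p = 0.35, and -0.25, adjusted p = 0.051), and DESeq2 called all 5 from the Mid to Post. Mid exceeded HiT in 4 of 5 (all but Mlxip) and Fed in 4 of 5 (all but Esrra), with 41.0% and 35.2% of all clusters called. Ppargc1a has 2 clusters and the values are of the higher one.

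Of the 6 genes that pass on amino groups edgeR's quasi-likelihood test called 1 from the Pre to Mid, Glul, the glutamine synthetase (1.03, SE 0.24, adjusted p = 0.0019), where DESeq2 called 3 and the likelihood ratio test 2. From the Mid to Post 4 of 6 fell, with Glul at -1.59 (adjusted p = 2.0e-05). Of all clusters edgeR's quasi-likelihood test called 30.2% and 35.0% in these steps, and 9.74% and 16.4% in those of experiment #2. In experiment #2 the same test called 0 of 6 in both steps (1 and 3 at an unadjusted p under 0.05, 1 and 2 by DESeq2), with Glul at 0.65 (adjusted p = 0.27) and -0.91 (adjusted p = 0.061). Mid exceeded HiT in 5 of 6, among them Got1 (1.00) and Gpt2 (0.96), the aspartate and alanine aminotransferases, and Fed in 2 of 6. Of all clusters 41.0% and 35.2% were called in these 2 comparisons. Of 7 genes of mitochondrial content the same test called 0 from the Pre to Mid (1 at an unadjusted p under 0.05, 0 by DESeq2) and 1 fell from the Mid to Post, while Mid exceeded HiT in 7 of 7 (median 0.36) and Fed in 3 of 7 (median 0.14). For this list too, the shares of all clusters called were 30.2%, 35.0%, 41.0% and 35.2% in the order given.

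**Figure D4:**
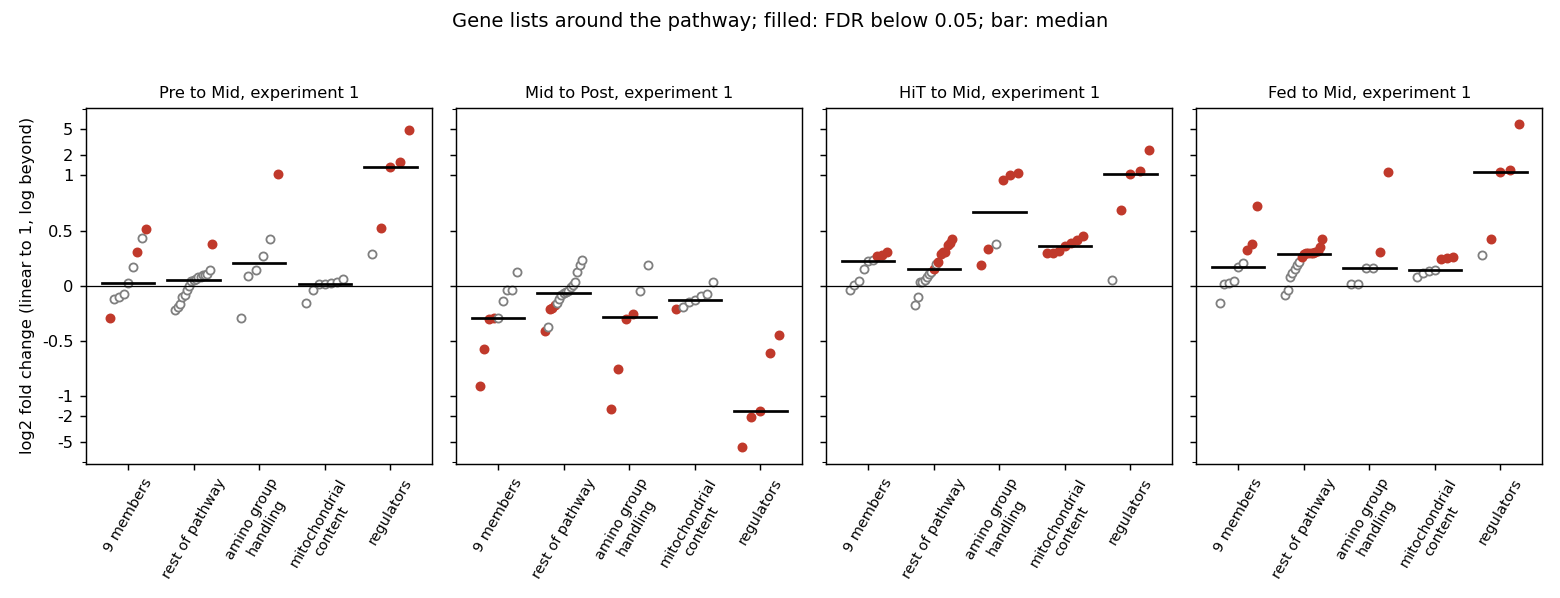
Log2 fold change (y axis, linear up to 1 and logarithmic beyond) of the 9 promoters and of 4 lists of related genes in 4 comparisons of experiment #1; filled red points passed an adjusted p of 0.05 and bars are medians. From HiT to Mid all 7 genes of mitochondrial content were higher, and from the Pre to Mid none of them was called. Of all clusters 41.0% and 30.2% were called in these comparisons.

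Markers of other cells moved with some of these comparisons. The 4 macrophage markers with a cluster summed to 71.6 to 160.5 CPM in HiT and to 23.7 to 48.0 in the other groups of experiment #1, and their part in the differences between HiT and Mid was not tested. The 7 slow fiber markers summed to 10027 to 12746 (median 10902) in HiT and to 11697 to 16436 (median 14278) in Mid, and 4 of 7 were higher in Mid and 0 lower. The 9 fast fiber markers summed to a median of 19706 in HiT and 22468 in Mid, and 2 were higher in Mid and 1 lower. Bckdha, Dbt and Hibadh were higher in Mid than HiT in the same libraries, and the part of the fiber markers in this was not tested. Adgre1, a defining macrophage marker, had no cluster. The 7 adipocyte markers ranged from 160.0 to 1545.2 in Mid and from 278.7 to 999.8 in Fed, overlapping in all groups, and the 4 red blood cell markers were at 2989.7 to 4237.9 in Mid and at 2814.1 to 13751.6 in Fed. All 4 red blood cell markers were called lower in Mid, in HiT and in Dep than in Fed. Tendon markers (5 of 5) summed to 376.3 to 789.7, and endothelial ones (4 of 4) to 132.8 to 187.7. Against Fed, 3 endothelial markers were called lower and 1 higher in Mid and in Dep, and 3 lower and 0 higher in HiT. Of all clusters 41.0% were called from HiT to Mid, 35.2% from Fed to Mid, 43.2% from Fed to HiT and 38.6% from Fed to Dep. Neutrophil markers (4 of 5, without Ltf) were below 1.6 in all libraries of experiment #1 except 1 Dep library at 132.6. The part of these in the levels of the 9 promoters was not tested.

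Between the experiments the promoters of the pathway stood at other levels. Bcat2 was at 14.8 to 18.8 TPM by group mean in experiment #2 and at 5.39 to 7.19 TPM in experiment #1, in the deposited values scaled to the whole library, and Ppm1k was at 10.01 to 13.6 and 4.10 to 6.35. Bckdk went the other way, at 30.3 to 31.2 in experiment #2 and 44.1 to 59.9 in experiment #1. The mice and the sequencing both changed between the experiments, so these cannot be told apart.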

How the data were processed

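The authors mapped nAnT-iCAGE reads to mm10 with BWA and HISAT2 and clustered the 5′ ends. The deposited counts are raw tags per cluster, and the TPM that the authors deposited scale those counts to 1000000 tags of the library. All per-sample columns were used. A cluster belonged to a gene when its highest position was at most 500 bp, same strand, from a GENCODE M21 5′ end. For the tests, edgeR 4.0.16 in R 4.3.3 fitted the counts after TMM scaling with group as the sole term, and its quasi-likelihood F test was used. The 28 libraries of experiment #1 (10776 clusters) and the 10 of experiment #2 (10816 clusters) were fitted separately, and all 38 together for differences between experiments. Adjusted p is Benjamini-Hochberg over all clusters, with a threshold of 0.05. Log2 fold changes are the second group minus the first.

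The 9 genes and the lists of related genes and markers were chosen with earlier results of these data known. All 9 were named, with up to 5 called genes per list of largest change from the Pre to Mid. Patterns were compared by Pearson's r of log2(CPM + 1). On simulated counts with 200 clusters changed by 1 on the log2 scale from the Pre to Mid, the test recovered 91% in experiment #1 and 67.5% in experiment #2. Alternatives were the likelihood ratio test, DESeq2 1.42.0, other scalings, a filter on low counts, only the compared groups, a replicate block, lane, and leaving out each library. Mice were not randomized, and each was 1 replicate. CAGE tags are not amplified by PCR, so their number sets the counting error. Libraries of a group also varied beyond it. The common dispersion in edgeR, the squared relative variation beyond counting error, was 0.038 in experiment #1 and 0.039 in experiment #2.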

Additional observations from a re-analysis of the deposited data

Results flagged for a closer look

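In groups of 4 to 10 libraries, 4 levels of the 9 promoters lay further from the other libraries of their group than Dixon's 95% criterion allows, among 63 groups tested. Chance alone flags about 1 in 20 groups. Bckdk in HiT 3 was at 64.5 CPM, above the other 3 HiT libraries at 44.5 to 45.1. Without it Bckdk passed the threshold from HiT to Dep (0.36, adjusted p = 0.0088). Bckdk in Fed 2 was at 39.3, below the other Fed libraries at 49.6 to 51.0. Mccc1 in Post 2 was at 39.8, above the others at 35.5 to 35.6. Bcat2 in Mid 9 of experiment #2 was at 16.4, below the others at 19.3 to 20.1. None of the 9 promoters was called for a difference between the experiments in the steps from the Pre to Mid or from the Mid to Post. For Bckdha the 95% interval of the difference in the first step lay above 0, so the absence of a call does not show equal steps. Of all 10819 clusters 0 were called in either step by edgeR's quasi-likelihood test (551 and 682 at an unadjusted p under 0.05, and 4 and 1 called by the likelihood ratio test).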

How the results depend on the processing

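Values are numbers called of the 9 promoters and, where given, of all clusters, in experiment #1 unless said. Without TMM scaling the calls of the 9 went to 0 from Pre to Mid (main 3; all clusters 1458), 2 from Mid to Post (main 4; 1630), 0 from HiT to Mid (main 3; 2323), 1 from Fed to Mid (main 3; 2181), 1 from Fed to Dep (main 3), 0 from Fed to HiT (main 2; 2961), 0 from HiT to Dep (main 2; 1108), 0 from Pre to Fed (main 2; 6), 0 from Pre to Post (main 1; 21) and 2 over the 6 groups at once (main 5; 4237), and from Mid to Dep 9 of all clusters were called. That setting moved the median of all clusters by -0.22 from Fed to Dep, -0.22 from Fed to HiT and -0.12 from Fed to Mid (log2). The share of calls that were higher moved by over 10 points without TMM from Pre to Mid (51.0% to 36.6%), Fed to Mid (47.1% to 23.3%), Fed to HiT (53.8% to 23.7%), Fed to Dep (48.2% to 17.1%), Pre to Fed (52.5% to 33.3%), Mid to Dep (57.1% to 77.8%) and Mid to Post of experiment #2 (47.2% to 62.2%). With upper-quartile scaling it moved from Pre to Mid (35.7%), Fed to Mid (36.7%), Mid to Post (63.3%) and Mid to Post of experiment #2 (58.3%). Upper-quartile scaling, RLE size factors, the likelihood ratio test and the replicate block each called 1 from Fed to HiT, and RLE and DESeq2 each called 5 from Fed to Mid, as did leaving out HiT 4, an alternative chosen after the data were seen. Leaving out HiT 4 called 0 from Pre to Post. The likelihood ratio test and the replicate block called 1 from Pre to Fed. With only the compared groups, 0 were called from Pre to Fed (all clusters 631), 0 from Pre to Post and 1 from Pre to Mid of experiment #2 (main 2), and of all clusters 2 from Mid to Dep. From Mid to Dep DESeq2 called 479 of all clusters, the likelihood ratio test 343 and the replicate block 407 (main 219). DESeq2 called 326 from Pre to Post (main 199). For the differences between experiments the likelihood ratio test called 4 clusters from Pre to Mid and 1 from Mid to Post (main 0 in both). The lane as a term left 0 from Pre to Mid and 0 from Mid to Post of experiment #2 (main 2 and 1; all clusters 485 from Mid to Post, main 1772). The cause was not tested for these. Windows of 100 and 1000 bp gave 8 and 9 clusters, and assigning each cluster to the nearest 5′ end gave 9.

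Leaving out 1 library at a time, the calls of the 9 ranged over 2 to 4 from Pre to Mid, 4 to 4 from Mid to Post, 3 to 4 from HiT to Mid, 2 to 5 from Fed to Mid, 0 to 0 from Mid to Dep, 0 to 1 from Pre to Post, 0 to 3 from Pre to Fed, 1 to 2 from Fed to HiT, 2 to 5 from Fed to Dep, 2 to 3 from HiT to Dep, and in experiment #2 over 0 to 2 from Pre to Mid and 1 to 2 from Mid to Post. Of all clusters they called 46 to 357 from Mid to Dep, 67 to 140 from Pre to Post, 192 to 1973 from Pre to Fed and 260 to 1320 from Pre to Mid of experiment #2. The replicate numbers do not mark a shared mouse, since each library came from 1 mouse. Same-numbered libraries of different groups had a mean correlation of -0.06 over 60 pairs, of which 16 were over 0.1. The mean was 0.01 over 260 other pairs, of which 95 were over 0.1. These correlations alone cannot exclude a pairing. With the replicate block Mid 5 to 8, whose numbers no other group has, add nothing to a contrast. It called 0 from Pre to Post, and Bckdhb passed from Pre to Mid (0.72, adjusted p = 0.015) and from Mid to Post (-0.57, adjusted p = 0.042). No block could be made in experiment #2, where Mid shares no number with the other groups. Of 2043 values of the 9 under alternatives, 87 changed sign, none of them called in either fit, and no called value changed direction. Ppm1k and Bcat2, with as few as 91 and 96 tags in experiment #1, have the largest counting error.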
